A study of Mus musculus with 18 samples.

Results

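Messages in the high polysome fraction of mouse embryonic stem cells (ESCs) were compared between Dgcr8 knockout (KO) and wild-type (WT) cells, across 12851 genes. The comparison takes every library that the labels place in this fraction, 3 of Dgcr8 KO and 3 of WT ESCs, which are 6 of the 18 libraries of the polysome experiment. The other 12 libraries are the monosome fraction and the low polysome fraction, of messages with 2 to 4 ribosomes, and serve to show where high polysomes differ. They also enter the gene filter and the shared fit behind the p-values. High polysomes are messages that carry 4 or more ribosomes. Both genotypes were grown with serum, LIF and 2i, a pair of kinase inhibitors that help to hold ESCs in a naive state. Both received 100 ug/ml cycloheximide for 2 min, which holds ribosomes on their messages, before lysates were spun through 10 to 50% sucrose at 35000 rpm for 3 h. WT cells are the V6.5 ESC line, and the KO cells are a Dgcr8 KO ESC line made in earlier work, so each genotype is represented by 1 line. Nothing in the labels says that the replicates were grown apart, so p-values measure the spread between these libraries only.

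DGCR8 binds primary microRNA transcripts and, with the nuclease DROSHA, cuts out the hairpins from which canonical microRNAs are made. In ESCs much of the microRNA pool belongs to the ESC-specific cell cycle-regulating (ESCC) family, the miR-290 and miR-302 clusters, which share a seed and are known to act on inhibitors of the G1-S transition. A microRNA paired to a 3′ UTR brings Argonaute and TNRC6 proteins to the message, which is then translated less and degraded faster. A level in high polysomes follows both the amount of a message and the share of it on many ribosomes, which cannot be told apart within this fraction, and in bulk samples neither can fewer cells with a message and less of it per cell.

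The ESCC microRNAs that DGCR8 loss removes are shown first, since several results below turn on their seed. The sequences are from RefSeq (GRCm38.p6), 5′ to 3′, with the seed, bases 2 to 8, in capitals. The miR-290 cluster members lie at chr7:3218968-3218989, chr7:3220691-3220712 and chr7:3220815-3220837, and the miR-302 members at chr3:127545275-127545297 and chr3:127545665-127545687, all on the plus strand.
miR-291a-3p: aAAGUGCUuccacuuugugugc
miR-294-3p: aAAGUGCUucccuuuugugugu
miR-295-3p: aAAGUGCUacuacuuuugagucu
miR-302b-3p: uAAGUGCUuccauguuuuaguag
miR-302d-3p: uAAGUGCUuccauguuugagugu
All 5 carry the same seed, which pairs with AGCACTT in a 3′ UTR, and a site with an A after it, AGCACTTA, is the strongest class, an 8mer. The miR-17 family, whose seed is shifted by 1 base, is shown for comparison, with its members at chr14:115043684-115043706 and chr14:115044183-115044205 on the plus strand.
miR-17-5p: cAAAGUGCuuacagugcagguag
miR-20a-5p: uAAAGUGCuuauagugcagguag
Its 8mer is GCACTTTA, so a 3′ UTR with AGCACTTT holds 7 matching bases for both families, whereas the 2 families' 8mers do not coincide.

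Among 19 ESCC targets named in earlier literature, 5 that were called higher hold an ESCC 8mer in the 3′ UTR of their main transcript. Each is given with 10 bases on either side where the UTR reaches that far, 5′ to 3′ on the strand of the message (GRCm38), with the 8mer in capitals. They lie at chr1:180938203-180938230, plus strand (Lefty1), at chr1:180897907-180897934, plus strand (Lefty2), at chr17:29100490-29100517, plus strand (Cdkn1a), at chr14:57691076-57691103, minus strand (Lats2) and at chr8:91123820-91123844, plus strand (Rbl2).
Lefty1: ctgtatgcgaAGCACTTAcatgtataga
Lefty2: acccagtttaAGCACTTAcatgggtaaa
Cdkn1a: tgggtgtcaaAGCACTTAgtgggtctga
Lats2: gtatggaaagAGCACTTAttttgtggat
Rbl2: ttttcaataaAGCACTTAtaaatta
The same 8 letters occur in the 3′ UTR of 393 of the 11674 protein-coding genes tested with an annotated 3′ UTR, 3.37%.

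High polysome libraries held 2495249 to 3063940 counts in WT and 3352066 to 4984833 in KO cells. Spearman's rho over genes was 0.984 to 0.987 between libraries of a genotype and 0.890 to 0.900 between genotypes. The 20 most abundant genes of each library took 6.84 to 7.29% of the reads in WT and 9.83 to 10.9% in KO. Of 10 ESC markers, 2 (Dppa5a and Pou5f1) were called lower (4 on scaling to total counts) and none higher, and their summed level was 5659 to 6211 CPM (reads scaled to library size) in WT and 3257 to 3959 CPM in KO. Markers of feeder fibroblasts summed to 9.14 to 16.5 CPM in WT and 3.01 to 6.86 CPM in KO, with Col1a2, Col3a1, Dcn and Postn at or below 3 counts in every high polysome library. Trophoblast markers summed to 178 to 206 CPM in WT and 147 to 168 CPM in KO with Cdx2 and Elf5 at or below 3 counts throughout, and neural markers to 102 to 140 CPM and 38.3 to 49.2 CPM. Primitive endoderm markers summed to 28.7 to 35.8 CPM in WT and 19.01 to 24.1 CPM in KO, and mesoderm markers to 1.15 to 2.94 CPM and 0.602 to 1.68 CPM. Reads of the targeted gene, Dgcr8 (ENSMUSG00000022718, chromosome 16, 18253948 to 18289246, minus strand), were at 26.1, 27.4 and 29.6 CPM in the WT libraries and 14.5, 23 and 8.73 CPM in the KO libraries, without overlap. Its log2 change was -1.01 ± 0.23 (SE, n = 3 per genotype, adjusted p = 2.8e-04), just past the fold threshold. That call was lost with the replicate numbers as a block (-0.88), with edgeR (-0.88) and DESeq2 (-0.87), without WT replicate 3 (-0.96) and without KO replicate 3 (-0.59). It was also lost in a fit of the high polysome libraries alone (-0.98) and with no filter on low counts (-0.99). Gene-level counts of 3′ ends include exons that a deletion can leave in place.

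Many messages differed between KO and WT cells, in both directions. Calls required that a change pass limma's test at 0.05 after Benjamini-Hochberg adjustment over all genes and exceed 1 on the log2 scale in size. By this rule 4249 of 12851 genes were called, 33.1% of those tested. Of these, 1946 were higher in KO (15.1% of genes tested) and 2303 lower (17.9%), and over all genes the median log2 change was -0.08. The change exceeded 2 on the log2 scale in 1100 of the called genes and 3 in 297. In 4124 of the called genes no KO library reached into the range of the WT libraries, which held for 63.6% of all genes tested (29.9% with KO above WT and 33.7% below). Without the fold threshold, 7802 genes passed, 60.7%. Scaled to total counts instead of TMM, the median over all genes was -0.31, and 1426 genes were called higher and 3114 lower. Lists of genes below are read against 15.1% higher and 17.9% lower.

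**Figure D1:**
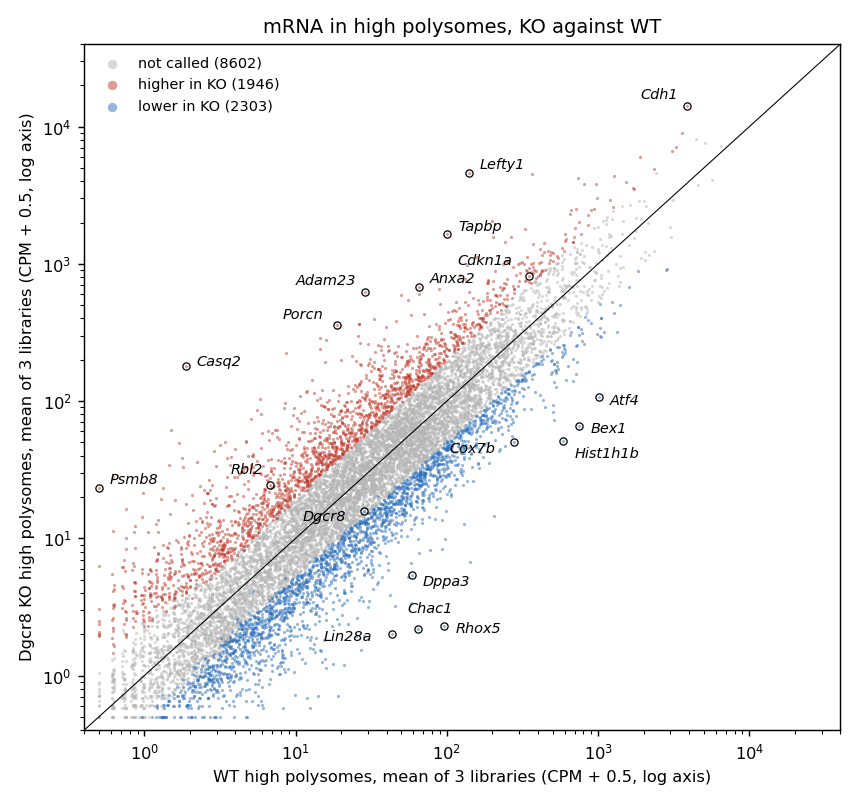
Mean level of each tested gene in the 3 WT libraries (x axis) and the 3 Dgcr8 KO libraries (y axis) of high polysomes, in CPM plus 0.5 on log axes, with genes called higher in red (1946), called lower in blue (2303) and not called in grey, and the line of equal levels in black. Lefty1, Tapbp and Casq2 sit far above the line at different abundances, Cdh1 lies above it at the top of the range, and Rhox5, Chac1 and Lin28a lie far below it.

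The 12 genes with the largest rises, by the rule stated for named genes, encode secreted and surface proteins, enzymes and a transcription factor. Lefty1 (ENSMUSG00000038793, chromosome 1, 180935022 to 180938400, plus strand), an inhibitor of Nodal signalling, was at 143, 145 and 132 CPM in WT and 3575, 4819 and 5389 CPM in KO libraries. The change was 5.02 ± 0.16 on the log2 scale (SE, n = 3, limma, adjusted p = 1.1e-25), or 32.4-fold, and values after each pair of levels below are the same quantities. Casq2 (ENSMUSG00000027861, chromosome 3, 102086415 to 102146514, plus strand), a calcium-binding protein of the cardiac sarcoplasmic reticulum, went from 0.78, 1.44 and 1.91 CPM to 141, 179.9 and 219 CPM, a log2 change of 6.88 ± 0.49 (adjusted p = 2.8e-15). The adhesion G protein-coupled receptor gene Adgrg5 was nearly silent in WT high polysomes, at 2.34, 0 and 0.637 CPM, and stood at 46.3, 64 and 71.2 CPM in KO (6.42 ± 0.68, adjusted p = 1.1e-10). These 3 genes showed no overlap between genotypes, as the naming rule required.

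Porcn, the acyltransferase that Wnt proteins need for secretion, had 21.5, 19.8 and 13.4 CPM in WT and 311, 405 and 358 CPM in KO libraries (4.33 ± 0.20, adjusted p = 4.7e-21). Adam23, a surface protein of the ADAM family, had 30.4, 29.2 and 24.8 CPM and 642, 695 and 528 CPM (4.46 ± 0.18). Ntn1, the secreted guidance cue netrin 1, had 18.7, 15.1 and 8.28 CPM and 278, 269 and 318 CPM (4.45 ± 0.26). All 3 messages were well measured in KO and low in WT cells. The guidance receptor Robo4 (4.90), the forkhead factor Foxd1 (4.94) and the lysyl oxidase-like enzyme Loxl4 (4.96) started from 3.3 CPM or less in each WT library. Tap2 and Erap1, also of this group, belong to antigen presentation and are described with its other genes.

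Of the 12 genes with the largest falls, several are known from the germline and early embryo. Rhox5 (ENSMUSG00000095180, chromosome X, 37804842 to 37808876, plus strand), a homeobox gene silenced by promoter methylation in many tissues, was at 82.7, 97.7 and 107 CPM in WT and 1.65, 2.17 and 1.61 CPM in KO libraries, a log2 change of -5.64 ± 0.41 (adjusted p = 5.6e-15). Khdc3, which encodes a KH-domain protein of oocytes and early embryos, dropped from 142, 128 and 152 CPM to 8.27, 4.97 and 5.52 CPM (-4.52 ± 0.23, adjusted p = 2.0e-19). Dppa3, the maternal factor Stella, dropped from 56.2, 55.1 and 62.4 CPM to 3.97, 5.59 and 5.06 CPM (-3.54 ± 0.26, adjusted p = 1.0e-14). WT and KO libraries did not overlap for any of them, as the naming rule required. The abundant message of Bex1, an adaptor protein of the nervous system, stood at 759, 796 and 694 CPM in WT and 81.3, 59.6 and 54 CPM in KO (-3.56 ± 0.14, adjusted p = 7.9e-23). Fmr1nb (-3.85), the cerebellin gene Cbln1 (-4.24), the Ly6-family gene Ly6g6e (-3.88) and the glutamate and cysteine transporter Slc1a1 (-3.70) were also in this group. Chac1, Nupr1, Lin28a and the linker histone Hist1h1b, the other 4, are taken up with their groups.

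All 24 of these genes were called in the same direction in low polysomes and in monosomes too, so none was changed in high polysomes alone. In 8 of them the change in high polysomes differed by test from that in monosomes, and was the larger of the 2. All 24 were chosen by their high polysome change, which favours this order.

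**Figure D2:**
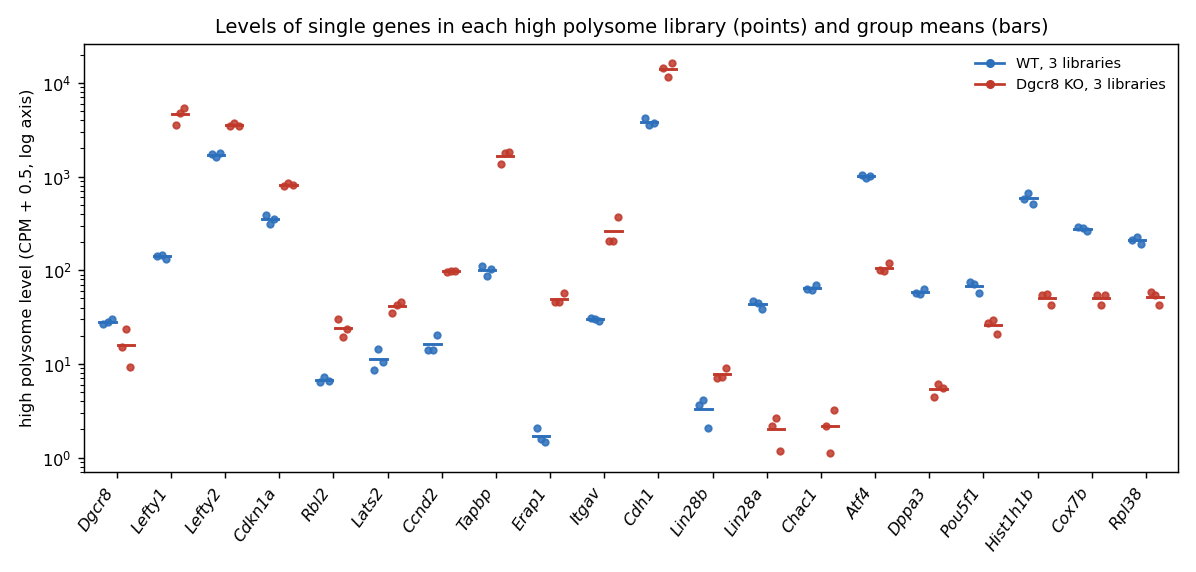
Level of 20 genes in each high polysome library (CPM plus 0.5, log axis), with WT in blue, Dgcr8 KO in red, points for single libraries and bars for the mean of 3. The genotypes do not overlap for any gene shown, and within a genotype the spread is widest for messages near 1 CPM, such as Lin28a and Chac1 in KO cells.

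Known ESCC targets were examined as a list taken from earlier literature. Of its 19 members, all of which passed the filter, 8 were called higher and none lower, with a median log2 change of 0.58. The Hippo kinase gene Lats2, an inhibitor of growth, rose from 8.19, 14.1 and 9.87 CPM to 34.7, 42.6 and 45.7 CPM (1.95 ± 0.23, adjusted p = 2.3e-09). Rbl2, a retinoblastoma-family pocket protein, rose from 5.85, 6.85 and 6.05 CPM to 29.8, 18.9 and 23.2 CPM (1.88 ± 0.26, adjusted p = 7.9e-08). Cdkn1a, which encodes the cyclin-dependent kinase inhibitor p21, rose from 388, 310.3 and 350.0 CPM to 785, 843 and 810.1 CPM (1.22 ± 0.11, adjusted p = 1.8e-12). None of the KO libraries fell within the WT range for these 3 cell cycle inhibitors. Ei24, a p53-induced gene, stood at 127, 108 and 111 CPM in WT and 388, 368 and 319.7 CPM in KO (1.63 ± 0.12, adjusted p = 1.4e-14). The caspase gene Casp2 (1.37) and the TGF-β receptor gene Tgfbr2 (1.26) completed the called members, beside Lefty1 and Lefty2.

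The 2 Lefty genes, both with an 8mer as printed above, differed widely in the size of their rise. Lefty2, a second Nodal inhibitor, was already at 1747, 1612 and 1769 CPM in WT and reached 3479, 3716 and 3436 CPM in KO libraries (1.05 ± 0.11, adjusted p = 2.4e-10). KO libraries held similar amounts of both, although WT libraries held over 1600 CPM of Lefty2 and under 150 CPM of Lefty1. The call of Lefty2 was lost when libraries were scaled to their total counts (0.83) and without WT replicate 2 (0.99). In monosomes the log2 change was 3.23 for Lefty1 and -0.06 for Lefty2.

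The other 11 literature targets were not called. Wee1, the kinase that holds CDK1 inactive, was at 96, 96.2 and 98.7 CPM in WT and 82, 99.7 and 113 CPM in KO libraries (0.01 ± 0.13, adjusted p = 0.94). It overlapped between genotypes and has an ESCC site of 7 bases in the 3′ UTR. An 8mer is present in 2 of them. The histone methyltransferase gene Ash1l changed by 0.74 ± 0.22 (adjusted p = 0.0033), under the fold threshold, and Mbd2, which binds methylated DNA, was at 13.3, 11.9 and 10.5 CPM in WT and 17.9, 11.2 and 11.3 CPM in KO libraries, with overlap (0.13 ± 0.24, adjusted p = 0.67). The other values ran from -0.82 for the Wnt inhibitor Dkk1, at 3.9, 5.05 and 3.5 CPM in WT, to 0.58 for the nuclear receptor Nr2f2, at 2.34, 2.16 and 0.637 CPM.

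Across all protein-coding genes, those with an ESCC site in the 3′ UTR stood above those without. Sites were classed as 8mer, 7mer-m8 (AGCACTT) or 7mer-A1 (GCACTTA), and each gene was put in the first class it met, reading the message strand only. Of the 393 genes with an 8mer, 114 were called higher and 26 lower, with a median log2 change of 0.42. Of the 9414 genes with no site, 1350 were called higher and 1777 lower, with a median of -0.11. The medians thus differed by 0.53, and by 0.54, 0.56 and 0.55 in KO libraries 1, 2 and 3 each taken against the WT mean. The 1499 genes with a 7mer-m8 stood 0.29 above genes with no site, and the 368 genes with a 7mer-A1 stood 0.37 above them. In low polysomes the 8mer class stood 0.36 above genes with no site, and in monosomes 0.24. Any ESCC site was present in 2260 genes, 19.4%.

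The 3′ UTR is longer in genes with a site, at a median of 2729 nt for the 8mer class and 803 nt for genes without one. Split by 3′ UTR length into 3 bins of equal size, the difference was 0.30 in the shortest (18 genes with an 8mer), 0.54 in the middle (93 genes) and 0.37 in the longest (282 genes). The part of 3′ UTR length in the difference beyond this split was not tested.

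The same classes were drawn for 11 of 16 microRNA families listed, those with a sequence in the reference used. The 502 genes with a miR-17 family 8mer stood 0.54 above genes with no site of that family, about as far as for ESCC. For the miR-25/92 family the difference was 0.38 (304 genes), for miR-19 0.28 (652 genes) and for miR-15/16 0.27 (498 genes). It was 0.19 for let-7, 0.14 for miR-21 and 0.10 for miR-29. The values thus ran from 0.10 to 0.54, positive for all 11 families. Within the 3 bins of 3′ UTR length, from the shortest to the longest, the miR-17 family stood 0.71, 0.67 and 0.30 above genes with no site, against 0.30, 0.54 and 0.37 for ESCC. The other 9 families ran from -0.11 for miR-26 to 0.48 for miR-130 in the shortest bin, from -0.55 for miR-21 (43 genes) to 0.30 for miR-25/92 in the middle bin and from -0.03 for miR-29 to 0.26 for miR-25/92 in the longest, so differences under 0 occurred in each bin. Several of the classes in the shortest bin held under 20 genes. Of the 393 genes with an ESCC 8mer, 166 also held a site of the miR-17 family. The 227 that did not stood 0.54 above genes with a site of neither family, and 173 genes with a miR-17 family 8mer and no ESCC site stood 0.57 above them.

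**Figure D3:**
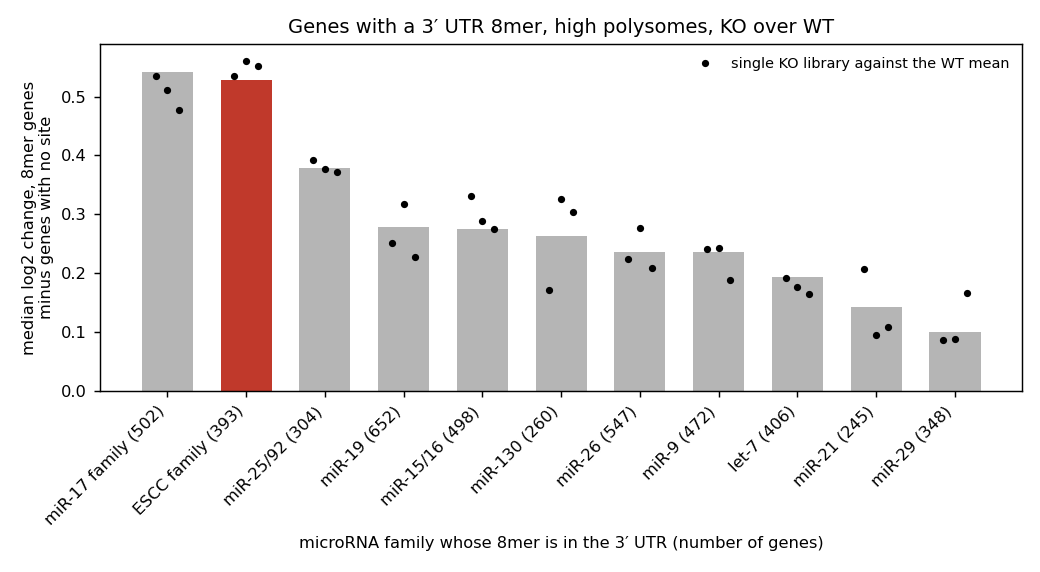
Median log2 change (KO over WT, high polysomes) of genes with an 8mer for a microRNA family in the 3′ UTR minus that of genes with no site of the family (bars, ESCC in red, numbers of 8mer genes in brackets), and the same difference for each KO library against the WT mean (points). The miR-17 family and ESCC bars reach 0.54 and 0.53, and the lowest, miR-29, 0.10.

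Cell cycle genes did not move as a block. Of 12 inhibitors of the G1-S transition, 4 were called higher and 4 lower. Besides Lats2, Rbl2 and Cdkn1a, the pocket protein gene Rbl1 rose from 25.4, 28.1 and 21.3 CPM to 48.9, 57.8 and 53.5 CPM (1.11 ± 0.16, adjusted p = 1.8e-07), a call lost on scaling to total counts (0.89) and without WT replicate 3 (0.99). In contrast Cdkn2d, encoding the CDK inhibitor p19INK4d, dropped from 99.1, 115 and 96.2 CPM to 36.7, 23.3 and 26 CPM (-1.88 ± 0.16, adjusted p = 5.9e-13). The related Cdkn1c (-1.93), Cdkn2b (-1.92) and Cdkn2c (-1.90) were also called lower, from 3.2 to 8.3 CPM in WT. Cdkn1b (-0.46) and Rb1 (0.41) were not called.

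Of 20 cyclins, CDKs and E2F factors, 3 were called higher and 3 lower (5 on total counts), near the share of all genes. The 3 that rose are D-type cyclins and a kinase they activate in G1. Ccnd2 went from 13.7, 13.7 and 19.7 CPM to 94.6, 98.5 and 98.4 CPM (2.62 ± 0.30, adjusted p = 8.7e-10), Ccnd1 from 193, 191 and 169 CPM to 598, 594 and 516 CPM (1.62 ± 0.11, adjusted p = 8.7e-16), and their kinase Cdk6 from 34.7, 35 and 37.6 CPM to 101, 107 and 111 CPM (1.57 ± 0.15, adjusted p = 6.3e-12). The S-phase cyclin Ccna2 dropped from 202, 219 and 219 CPM to 97.5, 92.6 and 88.7 CPM (-1.20 ± 0.12, adjusted p = 1.3e-11), and the factors E2f8 (-1.19) and E2f5 (-1.08) also fell. Ccne1 (0.62) and Cdk2 (-0.32) were not called.

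Among genes of the microRNA pathway itself, few were called. Of 8 processing genes only Dgcr8 was, and its partner Drosha changed by 0.67 and Dicer1 by 0.73. Of 26 genes of silencing and mRNA decay, 3 were called higher and none lower. Tnrc6a, a scaffold of the silencing complex, rose from 46, 56.6 and 70.7 CPM to 139, 141 and 156 CPM (1.34 ± 0.14, adjusted p = 9.1e-11). Its paralogue Tnrc6b rose from 19.5, 27 and 22 CPM to 52.9, 58.7 and 63 CPM (1.35 ± 0.17, adjusted p = 7.4e-09). Argonaute gene Ago1 rose from 66.7, 63.4 and 64 CPM to 175, 136 and 134 CPM (1.18 ± 0.14, adjusted p = 2.0e-09), a call lost on scaling to total counts (0.96), whereas Ago2 was at 413, 483 and 597 CPM and 427, 478 and 577 CPM, with overlap. Ddx6, a helicase of mRNA decay, was at 222, 242 and 239 CPM and 223, 207 and 199 CPM (-0.17 ± 0.11, adjusted p = 0.18), with the genotypes overlapping.

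The LIN28 and let-7 axis holds both one of the deepest falls and several smaller changes. Lin28a (ENSMUSG00000050966, chromosome 4, 134003330 to 134018841, minus strand), the RNA-binding protein that blocks let-7 maturation, was at 46.8, 44.7 and 37.9 CPM in WT and 1.65, 2.17 and 0.689 CPM in KO libraries, 30.2-fold lower (-4.91 ± 0.53, adjusted p = 2.4e-10). Its paralogue Lin28b was at 3.12, 3.6 and 1.59 CPM and 6.61, 6.83 and 8.5 CPM and rose (1.46 ± 0.40, adjusted p = 0.0018). The 2 paralogues went in opposite directions in all libraries. Of 14 members tested, 4 fell and 2 rose. Mycl dropped from 38.2, 29.6 and 33.8 CPM to 3.64, 4.04 and 4.83 CPM (-2.95 ± 0.31, adjusted p = 7.5e-11) and the chromatin factor Hmga1 from 40.2, 30.3 and 30.3 CPM to 11.9, 8.08 and 3.91 CPM (-2.27 ± 0.29, adjusted p = 1.3e-08). The call of Hmga2 (-1.01) was lost with the replicate numbers as a block (-0.98) and without WT replicate 2 (-0.97) or 3 (-0.95). It was lost too without KO replicate 1 (-0.91) or 3 (-0.97), with DESeq2 (-0.999) and with no filter on low counts (-0.996). A fit of the high polysome libraries alone (-0.98) also lost it. The call of Mycn (1.08) was lost on total counts (0.86), without WT replicate 2 (0.97) and without KO replicate 1 (0.89).

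Naive pluripotency genes mostly stayed under the fold threshold. Of 23, 1 was called higher and 4 lower (7 on total counts), and Nanog (-0.25), Sox2 (0.05), Esrrb (0.11) and Zfp42 (-0.51) were not called. Klf2, a Krüppel-like factor of the naive network, rose from 681, 567 and 846 CPM to 1448, 1895 and 2097 CPM (1.38 ± 0.14, adjusted p = 2.0e-11). Pou5f1, encoding OCT4, was at 73.7, 71.4 and 56.4 CPM and 26.8, 29.2 and 20.5 CPM (-1.42 ± 0.18, adjusted p = 5.7e-09), and Dppa5a at 1639, 1131 and 1054 CPM and 714, 318 and 281 CPM (-1.65 ± 0.19, adjusted p = 9.4e-10). Both have near-identical pseudogenes, and only uniquely aligned reads were counted, so their levels are uncertain. In monosomes these changes were 0.36 and -0.09. Tcl1, a coactivator of AKT, dropped from 301, 232 and 281 CPM to 71.7, 68.3 and 70.6 CPM (-1.94 ± 0.12, adjusted p = 1.1e-16).

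Of 15 formative and germ layer genes tested, Pou3f1, a POU factor of the epiblast, dropped from 26.1, 28.5 and 27.4 CPM to 3.64, 4.04 and 1.38 CPM (-3.36 ± 0.32, adjusted p = 9.2e-12) and the neural factor Sox1 from 43.7, 43.6 and 39.2 CPM to 10.9, 8.7 and 8.04 CPM (-2.21 ± 0.21, adjusted p = 9.2e-12). Foxd3 (1.05) and Cdh2 (2.28) rose, and the call of Foxd3 was lost on total counts (0.82), without WT replicate 3 (0.94) and without KO replicate 1 (0.92). Without KO replicate 3, 4 members were higher in place of 2. Summed markers of other cell types, given above as CPM of total counts, were lower in every KO than in every WT library on that scale. The exception was mesoderm, whose ranges overlapped. TMM factors were 0.87 to 0.90 in KO and 1.03 to 1.07 in WT high polysome libraries, so TMM scaling would narrow these gaps. Whether the sums stay apart on that scale was not tested, nor was the part of these markers in the results.

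Germline genes known to be silenced by DNA methylation were lower in 6 of 15 tested and higher in 1. Of the 14 with neither genotype at 3 counts or fewer in every library, 5 were lower. Sycp3, of the meiotic chromosome axis, dropped from 7.8, 14.1 and 10.5 CPM to 0.992, 2.8 and 1.38 CPM (-2.65 ± 0.45, adjusted p = 2.9e-06), and the Tudor-domain kinase gene Stk31 changed by -1.82 and Dazl by -1.61. Ddx4 (-0.03) and Piwil2 (0.71) were not called. Among 10 DNA methylation enzymes, the demethylases Tet1 (1.11) and Tet2 (1.04) were called higher, and both calls were lost on total counts (0.89 and 0.82), that of Tet2 also without WT replicate 1 (0.95) and without KO replicate 2 (0.99) or 3 (0.99). Dnmt1 (0.86), Dnmt3a (0.82) and Dnmt3b (0.22) were not called. None of the 10 was lower, but 1 was on total counts, with edgeR, DESeq2 and the replicate block and without WT replicate 2. Of 25 imprinted genes tested, 9 fell and 2 rose (none on total counts). The long noncoding RNA H19 stood at 39.4, 43.2 and 38.9 CPM in WT and 7.94, 11.2 and 8.04 CPM in KO libraries (-2.17 ± 0.57, adjusted p = 0.0012), and Meg3 at 78, 106 and 126 CPM and 168, 326 and 211 CPM (1.15 ± 0.21, adjusted p = 1.4e-05, lost on total counts at 0.93, without WT replicate 1 at 0.97 and without KO replicate 2 at 0.89).

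Nodal and TGF-β signalling genes were called higher in 10 of 27 and lower in 1. Besides the Lefty genes, the ligand Nodal rose from 239.9, 221 and 248 CPM to 666, 796 and 723 CPM (1.62 ± 0.13, adjusted p = 6.6e-14) and the related Gdf3 from 407, 362 and 336 CPM to 897, 1083 and 1039 CPM (1.45 ± 0.11, adjusted p = 3.6e-14). The inhibitory Smad7 dropped from 163, 142 and 124 CPM to 71.4, 62.4 and 57.9 CPM (-1.16 ± 0.14, adjusted p = 2.5e-09). No KO library fell within the WT range for these 3. Among receptors, Tgfbr1 (1.19), Bmpr2 (1.16) and Acvr1b (1.05) were called higher, with the proprotein convertase gene Furin (1.01), whereas the signal transducers Smad2 (0.02), Smad3 (0.31) and Smad4 (-0.46) were not called. Scaled to total counts, 4 members were higher and 4 lower, and without WT replicate 2, 2 were lower.

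Wnt pathway genes were called higher in 14 of 31 tested, with 6 of the 37 listed below the filter, and lower in 1. Of the receptors, Fzd7 rose from 27.3, 19.5 and 17.2 CPM to 104, 71.1 and 81.1 CPM (2.02 ± 0.19, adjusted p = 3.3e-12), and Fzd8 (1.74), Fzd6 (1.42) and Fzd2 (1.28) rose less. The ligand Wnt5b went from 5.07, 7.21 and 6.69 CPM to 23.1, 34.8 and 32.9 CPM (2.22 ± 0.28, adjusted p = 8.2e-09). Sp5, a transcriptional target of the pathway, went from 2.34, 1.44 and 0.955 CPM to 20.5, 14 and 12.4 CPM (3.21 ± 0.47, adjusted p = 2.1e-07). Another response gene, Axin2 (0.70), and the effector Ctnnb1 (0.65) were not called, and the T-cell factor Tcf7 was lower (-1.12 ± 0.16, adjusted p = 7.9e-08), a call lost without KO replicate 3 (-0.99). Scaled to total counts, 9 were higher, and without WT replicate 2, 2 were lower. The 2i medium of both genotypes holds an inhibitor of GSK3, which activates this pathway.

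The FGF-ERK pathway, whose kinase MEK is blocked in this medium, was called lower in 7 of 26 genes and higher in 1, and in 4 and none with a filter of 10 CPM or with the filter applied to the high polysome libraries alone. Its Sprouty feedback inhibitors differed in direction. Spry2 dropped from 140.0, 132 and 111 CPM to 30.7, 21.7 and 19.3 CPM (-2.45 ± 0.17, adjusted p = 1.5e-15). Spry4, the member called higher, was at 0.39, 0.36 and 0.637 CPM in WT, with no library over 3 counts, and 4.3, 2.17 and 2.07 CPM in KO libraries (adjusted p = 0.017), a call lost without WT replicate 2 or KO replicate 1. Spry1 was called lower with overlap between genotypes (-1.86 ± 0.66, adjusted p = 0.014), a call lost with DESeq2 and without WT replicate 2 or KO replicate 3. The RAS genes Hras (-1.59) and Nras (-1.47) fell, whereas Braf (0.93) and Fgf4 (0.15) were not called.

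Antigen presentation by MHC class I was raised throughout the list. All 14 members that passed the filter, of 15 listed, were called higher, with a median log2 change of 1.93. On scaling to total counts, 9 of the 14 were. Without Psmb8, which had no WT read, 13 of 13 were called higher. Erap1, among these 13, had means under the 3 CPM of the filter in all WT fractions. It passed the filter by its KO libraries, so no fall could have been called for it. Whether other members passed only by their KO level was not tested. Tapbp, which loads peptides onto MHC class I, rose from 111.6, 85.4 and 102 CPM to 1351, 1764 and 1812 CPM (4.04 ± 0.13, adjusted p = 1.1e-25). Tap2, of the peptide transporter, rose from 8.97, 7.93 and 7.32 CPM to 199, 181 and 293 CPM (4.76 ± 0.32, adjusted p = 8.7e-16), and Erap1, the aminopeptidase that trims peptides, from 1.56, 1.08 and 0.955 CPM to 45.6, 45.4 and 56.3 CPM (5.21 ± 0.49, adjusted p = 7.0e-12). KO and WT libraries did not overlap for any of the 3, as the naming rule required for Tap2 and Erap1. The immunoproteasome subunit Psmb8 had no read in any WT high polysome library and 21.5, 22.7 and 24.6 CPM in KO libraries, at least 21.4-fold higher against a floor of 3 counts in each WT library. The chains themselves moved less, with H2-K1 at 73.3, 71 and 74.8 CPM and 144, 153 and 152 CPM (1.03 ± 0.13), H2-D1 at 81.1, 84.7 and 72.3 CPM and 221, 165 and 149.6 CPM (1.15 ± 0.16) and B2m at 43.3, 36 and 41.7 CPM and 81, 99.4 and 94.7 CPM (1.18 ± 0.15). Class I genes are closely related in sequence, so H2-K1 and H2-D1 counts depend on which reads align uniquely. The chaperone Calr, among the abundant messages, went from 2161, 1868 and 1648 CPM to 5477, 5898 and 6609 CPM (1.67 ± 0.11, adjusted p = 1.0e-15).

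Interferon and RNA-sensing genes were called higher in 9 of 19 tested and lower in none, while 10 of the 29 listed did not pass the filter. Of the 9, Zbp1, Rsad2, Oasl1 and Gbp2 had at most 3 counts in every WT high polysome library, so that no fall could have been called for them, and of the other 15 genes tested 5 were called higher. Irf1, an interferon-regulated transcription factor, rose from 69.8, 63.4 and 80.6 CPM to 256, 243 and 286 CPM (1.88 ± 0.12, adjusted p = 1.6e-16), and Irf9 from 17.2, 16.6 and 18.8 CPM to 94.9, 85.1 and 83.4 CPM (2.31 ± 0.17, adjusted p = 3.4e-15). Both are transcription factors of the response. Zbp1, a nucleic acid sensor, was at 0.39, 0.721 and 0.955 CPM in WT and 14.2, 11.2 and 11 CPM in KO libraries, and the antiviral enzyme Rsad2 at 0.39, 0.721 and 0 CPM and 10.2, 11.2 and 14 CPM. No fold is given for these low WT counts. The sensors Mavs (0.34) and Eif2ak2 (0.45) and the editing enzyme Adar (0.11) were not called.

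Adhesion and matrix genes were among the groups with the most rises. Among protein-coding genes, 31.0% were called higher in the longest of 10 bins of coding length, described below. The part of coding length in these lists was not tested. Of 13 integrin subunits tested (26 listed), 9 were called higher and 1 lower, with a median of 1.79. The 1 called lower had at most 3 counts in every KO high polysome library. The αV subunit gene Itgav went from 30.4, 29.9 and 28.3 CPM to 202, 207 and 367 CPM (3.08 ± 0.22, adjusted p = 2.9e-15), and Itgb4 from 8.19, 11.9 and 13.7 CPM to 131, 107 and 109 CPM (3.34 ± 0.21, adjusted p = 1.6e-16). Itga5, of a fibronectin receptor, went from 11.3, 18.7 and 10.2 CPM to 74.4, 60.9 and 91.2 CPM (2.53 ± 0.20, adjusted p = 1.1e-13). Collagens and laminins were called higher in 10 of 21 tested (55 listed) and lower in 3 (5 on total counts). Of the 10, 1 had at most 3 counts in every WT high polysome library. Of the other 20 genes tested, 9 were called higher. The laminin chain gene Lama5 rose from 44.5, 45 and 45.5 CPM to 206.3, 162 and 194 CPM (2.04 ± 0.14, adjusted p = 2.1e-15), whereas Lama1 dropped from 19.11, 28.5 and 14 CPM to 6.94, 7.77 and 7.81 CPM (-1.36 ± 0.28, adjusted p = 6.0e-05). Annexin Anxa2 rose from 64.4, 61.3 and 68.5 CPM to 652, 668 and 716 CPM (3.39 ± 0.15, adjusted p = 9.5e-22) and Anxa3 by 4.21 ± 0.46 (adjusted p = 3.6e-10), whereas Anxa6 was lower by 4.14-fold (-2.05 ± 0.25, adjusted p = 4.1e-09).

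Of 27 genes of epithelial and mesenchymal states tested (34 listed), 12 were called higher and 3 lower. Cdh1 (ENSMUSG00000000303, chromosome 8, 106603351 to 106670246, plus strand), encoding E-cadherin, was by level the leading message named here, at 4255, 3561 and 3771 CPM in WT and 14405, 11675 and 16099 CPM in KO libraries (1.86 ± 0.12, adjusted p = 2.4e-16). Its change was 0.83 in low polysomes and 0.50 in monosomes. Of mesenchymal genes, Vim rose from 47.6, 37.8 and 36.6 CPM to 305, 185 and 211 CPM (2.497 ± 0.18, adjusted p = 4.3e-15), N-cadherin (Cdh2) from 3.12, 1.44 and 3.18 CPM to 15.5, 10.9 and 12.2 CPM (2.28 ± 0.38, adjusted p = 2.6e-06) and the repressor Snai1 from 3.51, 2.88 and 1.27 CPM to 14.2, 8.08 and 8.04 CPM (1.97 ± 0.41, adjusted p = 8.5e-05). The mesenchymal factor Twist1 went the other way, from 4.68, 4.32 and 2.87 CPM to 0.992, 1.55 and 2.99 CPM, with overlap (-1.05 ± 0.46, adjusted p = 0.045). Its call was lost with edgeR (-0.99), DESeq2 (-1.02) and the replicate block (-0.93), without WT replicate 1 (-0.92) or 2 (-0.98) and without KO replicate 1 (-0.74) or 2 (-0.97). Epithelial Epcam (1.28) and Cldn3 (1.42) rose, and Cldn6 (-1.96) and the galectin gene Lgals1 (-1.80) fell.

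Of 208 solute carriers tested (365 listed), 77 were called higher and 21 lower (33 on total counts), with a median of 0.62. Among the 203 with neither genotype at the floor of 3 counts, 74 were higher and 20 lower. The zinc transporter Slc39a14 rose from 3.51, 3.24 and 2.87 CPM to 30.4, 39.1 and 31.7 CPM (3.33 ± 0.37, adjusted p = 4.6e-10), and the citrate transporter Slc13a5 dropped from 16.8, 10.1 and 12.1 CPM to 1.32, 0.932 and 0.689 CPM (-3.59 ± 0.54, adjusted p = 3.5e-07). Of 45 motor proteins tested, 5 rose and 1 fell (2 on total counts and without WT replicate 3 or KO replicate 2), among them the kinesin Kif1b, from 19.5, 24.9 and 23.9 CPM to 109, 80.8 and 108 CPM (2.11 ± 0.17, adjusted p = 8.2e-14). This last share was below that of all genes in each direction.

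The integrated stress response, in which the factor ATF4 raises amino acid synthesis and stress genes, was lower. Of 30 genes tested (31 listed), 18 were called lower and none higher (1 without WT replicate 1 or KO replicate 2). The median log2 change was -1.63, or -1.51 with genes at the floor set to their bound. Without the 1 gene at the floor, 17 of 29 were lower. Atf4 was at 1042, 971 and 1006 CPM in WT and 99.2, 98.8 and 119.7 CPM in KO libraries (-3.25 ± 0.12, adjusted p = 3.0e-24). Its changes in low polysomes (-2.74) and monosomes (-1.06) were smaller in size. The pseudokinase gene Trib3 dropped from 129, 116 and 145 CPM to 13.9, 10.9 and 12.2 CPM (-3.39 ± 0.18, adjusted p = 3.0e-19). Chac1, which degrades glutathione, dropped from 62.4, 61.3 and 69.1 CPM to 1.65, 0.621 and 2.76 CPM (-5.27 ± 0.49, adjusted p = 4.1e-12), and Nupr1, a stress-induced regulator, from 49.1, 54.4 and 67.5 CPM to 3.64, 3.11 and 1.84 CPM (-4.36 ± 0.36, adjusted p = 1.5e-13). The groups were well apart for all of these, and the naming rule required no overlap for Chac1 and Nupr1. Of the metabolic enzymes in the list, 4 were called lower, Mthfd2 at 471, 449.8 and 588 CPM and 90.9, 75.2 and 81.4 CPM (-2.60 ± 0.14), Psat1 at 356, 299 and 418 CPM and 96.5, 73.6 and 89.6 CPM (-2.04 ± 0.14), Phgdh at 25, 22.7 and 20.1 CPM and 6.61, 3.73 and 2.3 CPM (-2.58 ± 0.32) and Psph (-1.78). Asns, the asparagine synthetase (-0.84), Aldh18a1 (-0.82), Pck2 (-0.44), Cth (-0.27) and Shmt2 (0.22) were not called. Of 20 aminoacyl-tRNA synthetases, 2 fell and 1 rose, or 4 and none on total counts.

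In the BCL2 family and p53 response, 5 of 23 genes tested were called lower and 3 higher (1 on total counts). Hrk, a BH3-only activator of apoptosis, was at 8.19, 14.4 and 13.4 CPM in WT libraries and 0, 0 and 0.23 CPM in KO libraries, where no library had more than 3 counts. Bbc3, encoding PUMA, dropped from 58.9, 53 and 62.7 CPM to 20.8, 21.4 and 21.6 CPM (-1.44 ± 0.17, adjusted p = 1.1e-09) and Bid from 80.7, 94.1 and 79.9 CPM to 40.3, 40.1 and 26.9 CPM (-1.29 ± 0.16, adjusted p = 9.1e-09). Perp, a p53 target of cell junctions, rose from 16, 18.4 and 15.6 CPM to 48.9, 51.9 and 46.9 CPM (1.55 ± 0.19, adjusted p = 3.4e-09). Trp53 itself (0.43), Mdm2 (-0.63) and Bax (-0.28) were not called.

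Ribosomal proteins, respiratory chain subunits and histones held many members called lower in high polysomes of KO cells. Of 84 cytosolic ribosomal protein genes tested, 49 were called lower and 1 higher (none on total counts or without WT replicate 2), with a median log2 change of -1.10. Rpl38 dropped from 212, 224 and 189 CPM to 58.2, 53.4 and 42.1 CPM (-2.04 ± 0.19, adjusted p = 8.9e-12), and Rpl39l, a testis-enriched paralogue, from 137, 152 and 200 CPM to 29.8, 32 and 33.8 CPM (-2.33 ± 0.17, adjusted p = 6.1e-15). The median of the list was -0.72 in low polysomes and -1.18 in monosomes. These genes have many processed pseudogenes, so counts of uniquely aligned reads are uncertain for them. Of 76 mitochondrial ribosomal protein genes, 38 were lower and none higher (median -1.03), with Mrpl55 at 87.4, 72.8 and 66.6 CPM in WT and 26.8, 18.3 and 14.9 CPM in KO libraries (-1.97 ± 0.17, adjusted p = 8.4e-13).

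Of 79 nuclear-encoded respiratory chain subunits tested, 39 were called lower and 2 higher (median -0.97). The cytochrome c oxidase subunit Cox7b dropped from 287, 285 and 262 CPM to 53.9, 41.6 and 54.2 CPM (-2.48 ± 0.13, adjusted p = 3.0e-19) and the complex III subunit Uqcrq from 262, 282 and 261 CPM to 49.9, 60.3 and 55.4 CPM (-2.28 ± 0.13, adjusted p = 1.7e-18). In monosomes their changes were -0.36 and -0.83. The 2 that rose encode flavoprotein subunits of complexes I and II, Ndufv1 (1.08) and Sdha (1.04), and both calls were lost on total counts (0.86 and 0.82). Ndufv1 was also lost without WT replicate 2 (0.90), and Sdha without KO replicate 1 (0.97) or 3 (0.94). Messages encoded in mitochondria were not called in any of 7 tested, with changes from -0.29 to 0.62.

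Of 32 replication-dependent histone genes tested (65 listed), 20 were lower and none higher. The median was -1.71, or -1.63 with genes at the floor set to their bound. Without the 3 genes at the floor, 17 of 29 were lower. The linker histone Hist1h1b dropped from 575, 673 and 515 CPM to 53.9, 55.3 and 41.6 CPM (-3.56 ± 0.19, adjusted p = 3.0e-19), and its change in monosomes was -1.31. Most of these messages end without a poly(A) tail and the libraries were primed on poly(A), so the counts cover their polyadenylated part. Variant histones, whose messages are polyadenylated, were lower in 6 of 11 tested. Cenpa, the histone H3 of centromeres, dropped from 221, 231 and 277 CPM to 45.6, 41.9 and 51 CPM (-2.38 ± 0.13, adjusted p = 1.6e-18), and H2afx from 1221, 1028 and 1009 CPM to 308, 329 and 325 CPM (-1.75 ± 0.12, adjusted p = 8.7e-16).

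The other lists of large complexes held smaller shares of calls. Of 49 translation factors, 10 were lower and 2 higher, and Eif4ebp1, the repressor of the cap-binding protein, dropped from 465, 405 and 459 CPM to 92.6, 89.2 and 90.1 CPM (-2.29 ± 0.12, adjusted p = 1.5e-19). Eef2k, the kinase that inactivates elongation factor 2, rose from 15.6, 12.3 and 28 CPM to 94.9, 89.8 and 113 CPM (2.46 ± 0.20, adjusted p = 1.7e-13). None of 8 TRiC chaperonin subunits was called, which include Cct6a (-0.34) and Cct3 (0.86). Of 38 proteasome subunits tested, 3 rose, the immunoproteasome subunits Psmb8, Psmb9 and Psmb10, and 2 fell (7 on total counts), Psmb3 (-1.09, and -0.97 without KO replicate 1) and Psma1 (-1.03, -0.99 with the replicate block and -0.90 without KO replicate 3). Of 46 DNA replication genes, 11 were lower and 1 higher (none on total counts), with the GINS subunit Gins2 falling from 250.4, 263 and 250.3 CPM to 85.3, 59.6 and 50.3 CPM (-2.02 ± 0.14, adjusted p = 3.0e-15).

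**Figure D4:**
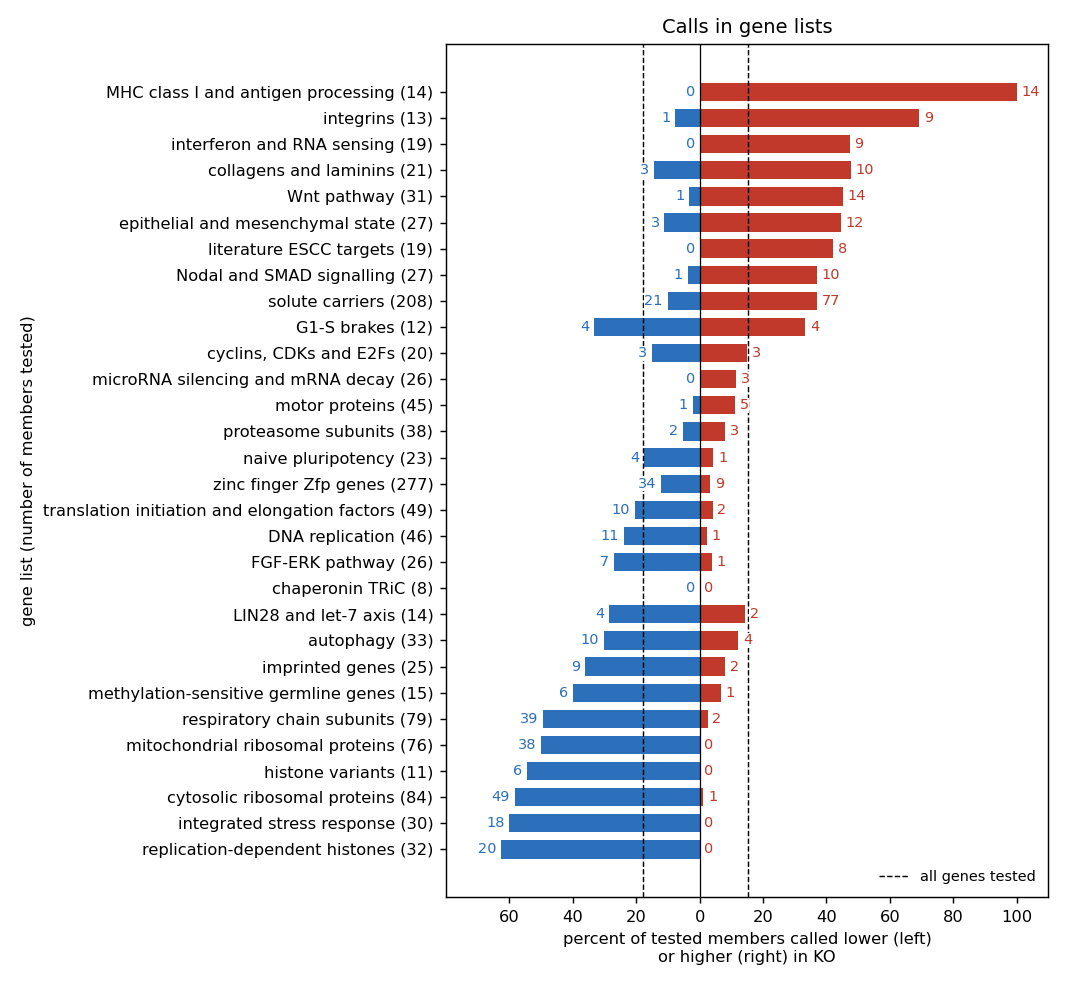
Percent of the tested members of 30 gene lists called lower (blue, left) or higher (red, right) in KO high polysomes, with the numbers called at the bar ends and the numbers tested in brackets. Dashed lines mark the shares of all genes tested, 17.9% lower and 15.1% higher. MHC class I reaches 14 of 14 higher while replication-dependent histones reach 20 of 32 lower, both with genes at the floor included.

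Several of the lists that fell encode short proteins, so the change was set against coding length over 11763 protein-coding genes, split into 10 bins. In the bin with the shortest coding sequences, 75 to 522 nt, 633 of 1177 genes were called lower and 37 higher, with a median log2 change of -1.13. In the bin with the longest, 3414 nt and more, 34 of 1177 were lower and 365 higher, with a median of 0.66. The median rose at each step between them. In low polysomes it ran from -0.85 to 0.19, and in monosomes from -0.13 to 0.02. A short coding sequence has room for few ribosomes, so coding length and fraction are linked in both genotypes. In 3 bins of coding length, genes with an ESCC 8mer stood 0.39, 0.66 and 0.29 above genes with no site, from the shortest to the longest.

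**Figure D5:**
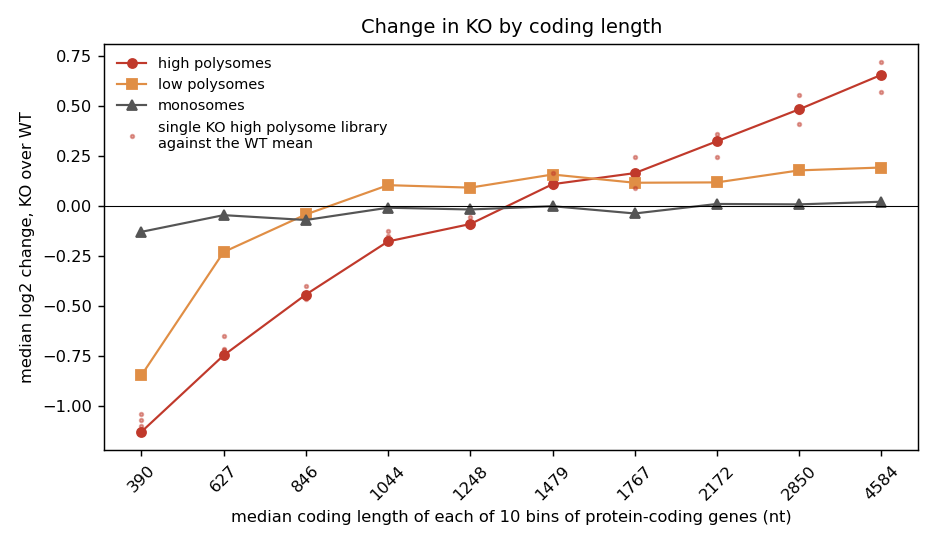
Median log2 change, KO over WT, of protein-coding genes in 10 bins of coding length (x axis, median length of each bin in nt), in high polysomes (red circles), low polysomes (orange squares) and monosomes (grey triangles), with small red points for each KO high polysome library against the WT mean. The high polysome line climbs from -1.13 to 0.66 while the monosome line stays between -0.13 and 0.02.

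High polysome changes were shared in part with the other fractions. Of the 4249 called genes, 2351 were also called in the same direction in low polysomes (where 25.0% of genes were called) and 1484 in monosomes (18.1%). Neither other fraction was called for 1686 genes, but a missing call there is no test of a difference. The difference itself was called for 1940 genes against monosomes (15.1%), 808 of them higher in high polysomes (6.29%) and 1132 lower (8.81%), and for 666 against low polysomes (5.18%), 294 higher (2.29%) and 372 lower (2.89%). Scaled to total counts, the split was 282 higher and 2070 lower against monosomes and 122 and 844 against low polysomes. These tests took all libraries as independent, although the labels give the fractions of a genotype the same replicate numbers. By the test against monosomes, 1257 of the called genes changed further in the same direction in high polysomes. Another 16 changed significantly less or the other way. The called genes were selected by their high polysome change, which enters this difference, so an excess in the same direction is built in. These counts are therefore a description. Atg2a, a lipid transfer protein of autophagy, was at 28.9, 20.9 and 29.6 CPM in WT and 131, 114 and 172 CPM in KO high polysomes (2.38 ± 0.17, adjusted p = 5.7e-15), and its change in monosomes was 0.32. The collagen gene Col5a1 was at 15.2, 10.8 and 7.96 CPM and 27.1, 19.6 and 37.7 CPM (1.35 ± 0.27, adjusted p = 3.6e-05), against -0.82 in monosomes. Bahd1, a heterochromatin factor (1.76), and Tnks1bp1, a tankyrase-binding protein (1.79), also rose in high polysomes and were not called in the other fractions.

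In the other direction, the linker histone Hist1h1d was at 254, 256 and 157 CPM in WT and 41.3, 59.96 and 32.4 CPM in KO high polysomes (-2.34 ± 0.23, adjusted p = 1.6e-11), and its change in monosomes was 0.02. Pnrc2, a nuclear receptor coactivator that also acts in mRNA decay, dropped from 30.4, 36 and 31.5 CPM to 8.93, 6.21 and 9.42 CPM (-1.98 ± 0.21, adjusted p = 1.1e-10), against 0.26 in monosomes. Bola1 (-1.74) and Cystm1 (-1.57), which encode small proteins, fell in high polysomes with monosome changes of 0.50 and 0.69. These 8 genes were chosen for the difference, so their monosome values are a description.

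Noncoding and unannotated transcripts are in this fraction too. Of 222 lincRNAs tested, 64 were called lower and 15 higher (median -0.76), and of 119 antisense genes, 36 lower and 2 higher (median -0.84). Of 294 processed pseudogenes, 94 were lower and 4 higher (median -0.95), with the same doubt on unique alignment as above. Mir17hg, the host transcript of the miR-17 cluster that DROSHA and DGCR8 process, rose from 1.95, 5.41 and 5.73 CPM to 33.7, 48.5 and 36.5 CPM (3.20 ± 0.45, adjusted p = 8.0e-08). Lncenc1, a noncoding RNA of naive ESCs, dropped from 133, 129 and 155 CPM to 33.4, 36 and 45.3 CPM (-1.85 ± 0.15, adjusted p = 1.6e-13). Of 15 noncoding hosts of small nucleolar RNAs, 3 were lower (2 with the replicate block and 1 without KO replicate 2), among them Snhg5, from 47.6, 51.5 and 52.2 CPM to 19.5, 17.4 and 19.5 CPM (-1.42 ± 0.17, adjusted p = 3.7e-09). Malat1 (0.64) and Neat1 (-0.13) were not called.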

How the data were processed

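RNA from 18 gradient fractions of mouse ESCs (2 genotypes, 3 fractions, 3 libraries each) was made into libraries with the QuantSeq 3′ FWD kit, which reads the 3′ ends of polyadenylated RNA, so counts do not scale with transcript length. The authors deposited 1 table of raw counts of uniquely aligned reads per gene (mm10, GENCODE M14 annotation), and the submitters' processing notes name cutadapt 1.14, STAR 2.5.3a and featureCounts 1.5.3. No step that counts molecular identifiers is stated, so floors cover counting error only. The 92 spike-in entries were left out (0.00052 to 0.00215% of reads). Names and positions came from GENCODE M21 (GRCm38), in which 51274 of 51467 gene IDs were found.

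Genes with 3 CPM in at least 3 libraries were kept. Library sizes were adjusted by TMM (edgeR 4.0.16), and limma-voom (limma 3.58.1, R 4.3.3) fitted a mean per group over all 6 groups. Two-sided p-values were adjusted over the 12851 genes (Benjamini-Hochberg), and a gene was called when its change passed 0.05 and exceeded 1 on the log2 scale in size. Levels in the text are CPM on TMM-scaled library sizes, while the sums of cell type markers are CPM of total counts. Plots add 0.5 CPM. A group with at most 3 counts in every library was taken as at the floor, and a fold against a group at 0 was computed with 3 counts in each of its libraries. On data simulated for this comparison over 12851 genes, 98% of 100 genes changed by 1.5 (log2) and 100% of 100 changed by 2 were recovered, with 4 false calls. Far fewer genes were changed there than the 4249 called in the data, so the simulation does not test scaling under such wide change.

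Genes named were Dgcr8 and Ddx6, the 12 highest and 12 lowest changes (mean count of 50 or more, no overlap between genotypes, more than 3 counts in a library of each group), up to 4 called members of a gene list in each direction or the 2 most abundant where fewer than 2 were called, 4 genes in each direction chosen by the difference from monosomes, and literature ESCC targets with a site. Other genes named were chosen after their values were seen, and some genes that the rule takes are not reported here. Members and lists were chosen with earlier results of these data known. Target sites and coding lengths were read from 1 protein-coding transcript per gene (complete, APPRIS principal, then longest coding sequence), and microRNAs from RefSeq.

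Same-numbered WT and KO high polysome libraries deviated together over 7516 genes (r = 0.139, 0.112 and 0.155 for numbers 1, 2 and 3), so the replicate numbers were taken as pairs from the data, and a fit with the number as a block was run. That fit covered the high polysome libraries only, so tests of differences between fractions carry no block. Calls, SEs and p-values in the text come from the fit without the block unless the block is named. Alternatives were other scaling factors, edgeR's quasi-likelihood test, DESeq2 1.42.0, other filters, the high polysome libraries alone, no fold threshold and each library left out.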

Additional observations from a re-analysis of the deposited data

Results flagged for a closer look

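The change between genotypes was compared between fractions by an interaction test (limma, Benjamini-Hochberg, adjusted p under 0.05 and an absolute difference over 1 on the log2 scale). It was higher in high polysomes than in monosomes for 808 genes and lower for 1132, and higher than in low polysomes for 294 genes and lower for 372. Among genes called only in high polysomes, the difference from monosomes was 2.17 for Col5a1, 2.12 for Bahd1, 2.06 for Atg2a and 2.04 for Tnks1bp1, and -2.36 for Hist1h1d, -2.26 for Cystm1, -2.24 for Pnrc2 and -2.24 for Bola1. Among the genes with the largest changes in high polysomes, the difference from monosomes was 2.73 for Loxl4, 1.91 for Ntn1, 1.78 for Lefty1 and 1.73 for Tap2. It was -2.25 for Hist1h1b, -1.499 for Dppa3, -1.26 for Fmr1nb and -1.24 for Bex1. The first 8 genes were chosen by this difference, so their values are a description. The others were chosen by their high polysome change, which enters the difference, so their values are a description too.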

How the results depend on the processing

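None of the 241 genes named by the rule, and neither the ESCC difference nor the medians of the shortest and longest coding length bins, changed direction under the alternatives that gave a value for them. Without the fold threshold, 7802 genes passed in high polysomes (3735 higher, 4067 lower). A fit of the high polysome libraries alone called 4208 genes (2037 higher, 2171 lower). Scaled to total counts, 282 genes changed more upward in high polysomes than in monosomes and 2070 more downward, and against low polysomes 122 and 844. Under that scaling the median of the shortest of 10 bins of coding length was -1.35 and that of the longest 0.43. With each high polysome library left out in turn, 3974 to 4203 genes were called (1828 to 1981 higher, 2096 to 2356 lower). The difference from monosomes was called for 1719 to 2055 genes (685 to 950 higher, 1034 to 1218 lower), and that from low polysomes for 516 to 778 (211 to 395 higher, 305 to 411 lower). In the same runs the ESCC 8mer class stood 0.53 to 0.58 above genes with no site, the shortest bin had a median of -1.16 to -1.09 and the longest 0.61 to 0.70.

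The ESCC difference was 0.56 with a filter of 10 CPM and 0.56 with the filter applied to the high polysome libraries alone. In 3 bins of 3′ UTR length it was 0.30, 0.54 and 0.37. The shortest bin of coding length had a median of -1.19 with the 10 CPM filter, -1.19 with the filter on high polysome libraries and -1.09 in a fit of the high polysome libraries alone. The cause of these shifts was not tested. A filter of 10 CPM, which tests fewer genes, left 1 inhibitor of the G1-S transition lower, 3 germline genes lower and none higher, 3 motor proteins higher, 12 replication-dependent histones lower and 12 solute carriers lower. The filter on high polysome libraries left 2 Nodal and TGF-β genes lower and no integrin lower.

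With the replicate number as a block, 4169 genes were called (2028 higher, 2141 lower), of which 4040 were shared with the calls without it. The ESCC difference was 0.53 and the median of the shortest coding length bin -1.09 in that paired fit. Of 241 genes named by the rule, 7 lost their call under it, and it changed no other call among them. Scaling to total counts cost 22 their call, DESeq2 8, edgeR 4 and single libraries left out 9 to 16 each.

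A group of 3 libraries with 2495249 to 4984833 counts leaves messages near 1 CPM at a few counts, so values of Lin28a, Chac1 and similar genes in KO cells rest on few reads. Each genotype is 1 line, so line and genotype cannot be told apart.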

Other observations

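Chromosome 8 stood apart among the chromosomes. Of its 709 genes tested, 183 were called lower and 81 higher in KO high polysomes, with a median log2 change of -0.41, while chromosome 13 had a median of -0.27 and the other autosomes and X -0.17 to 0.05. In low polysomes the median of chromosome 8 was -0.28 and in monosomes -0.30.

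Of 29 Polycomb genes, 4 were called higher and 3 lower, or 7 lower on total counts and 1 with either stricter filter or without KO replicate 3. Jarid2, a cofactor of Polycomb repressive complex 2, rose from 792, 882 and 888 CPM in WT to 1857, 2538 and 2443 CPM in KO libraries (1.41 ± 0.11, adjusted p = 6.2e-14), and the methyltransferase gene Ezh1 rose from 41, 45.4 and 45.9 CPM to 137, 117 and 119 CPM (1.49 ± 0.14, adjusted p = 2.9e-12). Cbx7, which reads methylated histone H3, dropped from 133, 149.9 and 156 CPM to 72.4, 61.2 and 52.2 CPM (-1.26 ± 0.15, adjusted p = 3.7e-09), and Ezh2 (-0.59), Suz12 (-0.62) and Eed (-0.53) were not called. Of 277 Zfp zinc finger genes, 34 were lower and 9 higher (60 and 5 on total counts), and Zfp516 dropped from 229, 197 and 233 CPM to 48.9, 36.3 and 43.4 CPM (-2.36 ± 0.13, adjusted p = 1.7e-18).

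Autophagy genes were called lower in 10 of 33 and higher in 4 (7 without WT replicate 3). Of the LC3 and GABARAP genes in the list, Map1lc3b was at 90.1, 95.1 and 97.1 CPM in WT and 26.1, 28.6 and 29.9 CPM in KO libraries (-1.73 ± 0.14, adjusted p = 1.1e-13) and Gabarapl1 at 41.7, 44 and 38.9 CPM and 9.92, 15.5 and 13.8 CPM (-1.66 ± 0.19, adjusted p = 5.0e-10). Map1lc3a (-1.28) and Gabarapl2 (-1.303) were also called lower, and Gabarap (-0.19) was not called. The lipid transfer proteins Atg2a (2.38) and Atg2b (1.300), the kinase subunit Pik3r4 (1.61) and the receptor Optn (1.45) rose.

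Cholesterol synthesis genes were lower in 6 of 23 tested and higher in 2. The sterol isomerase gene Ebp rose from 235, 242 and 223 CPM to 940.0, 1189 and 843 CPM (2.07 ± 0.13, adjusted p = 1.3e-16), and Pmvk, of the mevalonate pathway, dropped from 205.6, 147 and 174 CPM to 52.2, 48.8 and 44.4 CPM (-1.85 ± 0.13, adjusted p = 5.4e-15). Of 23 glycolysis genes tested, 2 were higher, among them Pdk1, which holds pyruvate dehydrogenase inactive (1.40 ± 0.14, adjusted p = 1.2e-11), and 1 was lower. The 1 called lower had at most 3 counts in every KO high polysome library. The number higher was 1 on total counts and without WT replicate 3 and 4 without KO replicate 2, and none was lower with the filter on high polysome libraries, without WT replicate 3 or without KO replicate 1 or 3.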
